A study of Mus musculus with 13 samples.

Results

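CTCF binding was compared between limbs of mouse embryos that carry the HoxD deletion allele del(8-13)d11lac and limbs of wild-type embryos. The comparison rests on 2 of the 13 samples of the series, 1 CTCF library a side, and on the peak list deposited for each. Both libraries came from whole forelimbs and hindlimbs at E12.5, on a B6CBAF1 background, and the mutant embryos were homozygous offspring of heterozygous parents. By its name the allele lacks the genes from Hoxd8 to Hoxd13 and carries a lac reporter called d11lac. A peak over reporter sequence that is foreign to the mouse would not appear in lists made on the mouse genome. A peak over mouse sequence carried with the reporter could appear there, and whether the insert holds such sequence is not given. The labels do not say how many embryos were pooled for a library. The other 9 lists served as a reference for single sites. They were CTCF in wild-type distal and proximal forelimb (strain CD1), CTCF in 3 other homozygous HoxD alleles (del(8-13)rXII, from forelimbs alone and by ChIPmentation, del(1-13)d9lac and del(attP-Rel5)d9lac), and RAD21 or SMC1, which are subunits of cohesin, in wild-type whole limb (RAD21), wild-type distal forelimb (both) and del(8-13)rXII (RAD21).

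CTCF is a zinc-finger protein that recognises an asymmetric DNA motif, so every site has an orientation. Cohesin reels DNA into loops, and CTCF can stop it, so that loops often join sites whose motifs face each other. The HoxD cluster is a row of homeobox genes that pattern the arm, hand and digits. It lies between an enhancer landscape on the centromeric side, which acts on the digit genes, and one on the telomeric side, which acts in the arm, and its CTCF sites stand where these landscapes meet.

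The wild-type list held 43533 peaks after overlapping rows were merged, and the mutant list held 61200. The strength of a peak is its −log10 q, the authors' measure of how far a summit stands above its local background. Its median was 17.0 in the wild-type list and 30.9 in the mutant list, and the median width was 315 bp and 420 bp. Strength and list length grow with read depth, which the lists do not give, so strengths of the lists are set side by side and are not read as a change. With 1 library a side there was no replicate spread and no test, and genotype and library cannot be told apart. The intervals given are Wilson 95% intervals, which hold counting error and nothing else.

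A CTCF matrix of 19 bp was built from the strongest wild-type summits, and its most frequent bases read TGGCCACCAGGGGGCGCCA. A motif below means that the highest-scoring match no more than 50 bp from the summit had at least 6.39 bits, a score that 5% of windows 2 kb away reach. The matches at the HoxD sites are printed because they show what the mutant list lacked and kept. Each is written 5′ to 3′ on the strand with the run of G, in the mm10 build, with the match in capitals and 5 bases of the mouse reference on either side. The first 2 and the last were shared by both lists, and the 4 between them had no mutant peak.
Evx2, chr2:74655523-74655541, minus strand: tcctgCTGCCGCTAGGGGGCGCCCcgggg
between Evx2 and Hoxd13, chr2:74661997-74662015, minus strand: cgaggAAAACAGATGGGGGCGCCAaatga
between Hoxd13 and Hoxd12, chr2:74673174-74673192, minus strand: ccaaaCGCCCAGGAGATGGCGAGCgtgct
Hoxd11, chr2:74686477-74686495, plus strand: ttctaCAGCCACACGAGGGCGCGCtcatg
Hoxd10, chr2:74694225-74694243, minus strand: cttacTGATCTCTAGGCGGCGCTCgcggg
between Hoxd9 and Hoxd8, chr2:74702392-74702410, plus strand: gcattTGGCCACTAGAGAGCGCTGttgct
Hoxd4, chr2:74715918-74715936, plus strand: agcttTGTCCAGGAGGAGGCGCTGtagga

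From the start of Evx2 to the end of Hoxd1 (74652991 to 74765142 on chromosome 2) the wild-type list had 9 peaks, and 5 of them had no mutant peak. Over the whole genome 3579 of 43533 wild-type peaks (8.22%, 7.97 to 8.48) had none. The 5 missing sites lay next to each other within 29.6 kb. Mutant peaks that overlapped a wild-type peak ended at 74663945 and began again at 74715689, which leaves 51.7 kb that held a single mutant peak, the extra one described further on. The site between Hoxd13 and Hoxd12 (74672984 to 74673330) had a wild-type −log10 q of 54.1. The site in an exon of a non-coding Hoxd11 transcript (74686323 to 74686684) had 56.8. The site 0.155 kb from the Hoxd10 start (74691608 to 74691923) had 12.4 and no motif, and its best match scored 2.92 bits. The site in the coding exon of Hoxd10 (74694024 to 74694427) had 34.4, and the site between Hoxd9 and Hoxd8 (74702212 to 74702605) had 60.4. The last was the strongest missing peak of the genome, and the 3 missing sites above 50 were the only missing peaks of that strength, against 8334 kept ones. All 5 lie between the start of Hoxd13 and Hoxd8, a stretch that the homozygous allele lacks by its name. Their absence therefore cannot be read as a loss of CTCF from DNA that is present. The exact ends of the deletion are not given in the sources used here.

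The missing motifs pointed both ways. Of the 4, those between Hoxd13 and Hoxd12 and in Hoxd10 were on the minus strand, with 12.3 bits each, and those in Hoxd11 and between Hoxd9 and Hoxd8 were on the plus strand, with 15.7 and 17.7 bits. The kept motifs were sorted by side, since both on the Evx2 side were on the minus strand and the one at Hoxd4 was on the plus strand. All 5 missing sites were peaks in both wild-type forelimb lists, where their −log10 q ran from 35.3 to 188 in distal and from 32.3 to 183 in proximal forelimb. Only the site in Hoxd10 was a peak in another mutant list, at 35.0 in del(attP-Rel5)d9lac and 26.3 in del(1-13)d9lac. By its name del(1-13)d9lac lacks the stretch with these sites too, and so does the rXII allele. Absence from those lists therefore cannot be read as a loss of CTCF. What del(attP-Rel5)d9lac lacks cannot be read from its name. Both alleles with the Hoxd10 peak carry a d9lac reporter by name, and which DNA gave that peak was not tested. RAD21 of wild-type whole limb was called at 3 of the 5, with 41.7 between Hoxd13 and Hoxd12, 49.6 before Hoxd10 and 46.3 between Hoxd9 and Hoxd8.

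**Figure D1:**
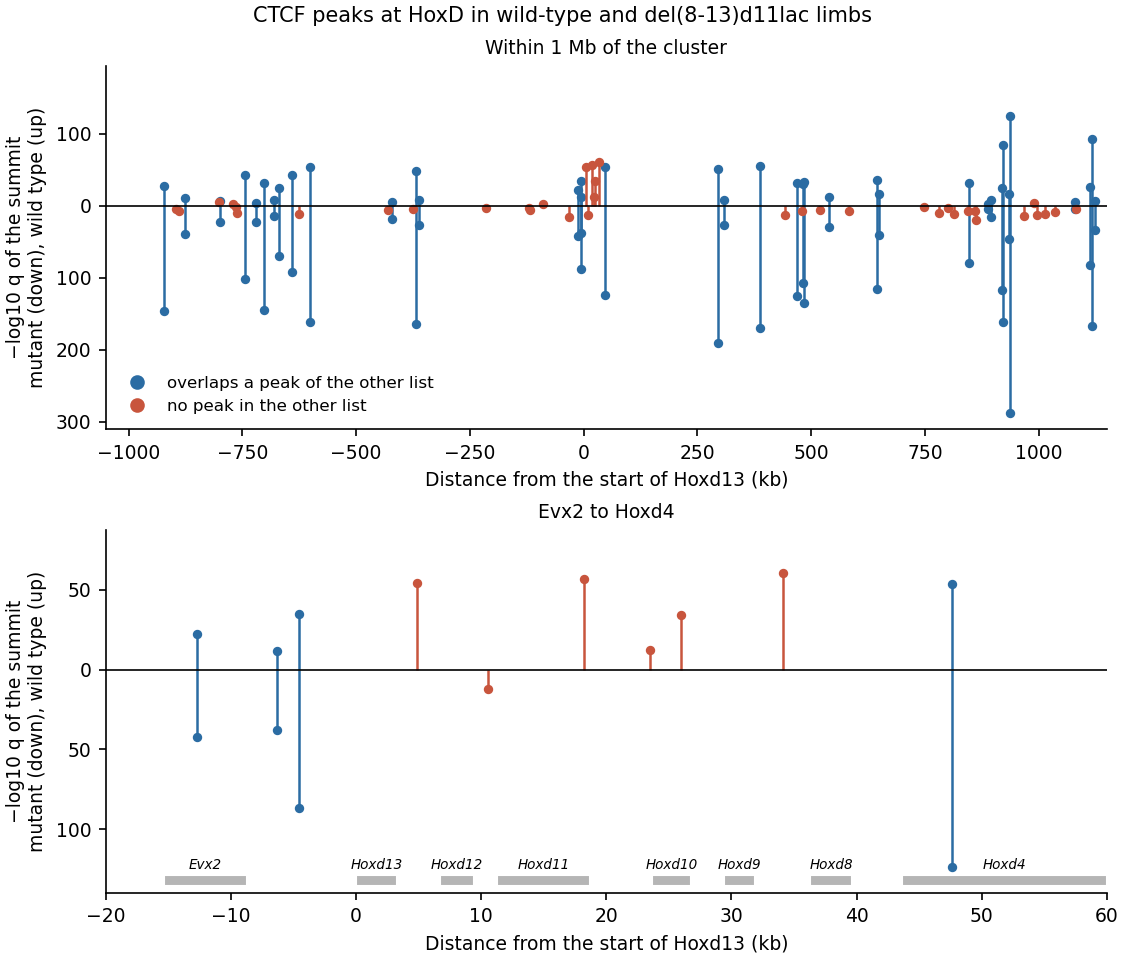
CTCF summits by their distance from the start of Hoxd13 (kb, x axis) and −log10 q (y axis), wild type upward and del(8-13)d11lac downward, within 1 Mb of the cluster (top) and from Evx2 to Hoxd4 (bottom, gene bodies in grey). The 5 wild-type peaks without a mutant peak stand together, with −log10 q from 12.4 to 60.4, and the 1 mutant peak among them has 12.4.

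The sites on both edges of the missing block were in both lists. The Evx2 site, in the untranslated part of that homeobox gene (74655315 to 74655721), had a −log10 q of 22.3 in wild type and 42.3 in the mutant. The site next to it, between Evx2 and Hoxd13 (74661629 to 74662138), had 11.9 and 38.2. The nearer one to Hoxd13 (74663558 to 74663930) had 34.7 and 87.1 and no motif, with a best match of 6.20 bits that fell just short. The Hoxd4 site (74715703 to 74716372), in an exon of the antisense transcript Hoxd3os1 and in introns of Hoxd3 and Hoxd4, had 53.4 and 124.

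All 4 edge sites ranked lower among the kept sites in the mutant than in wild type. Ranks were used because they do not depend on the scale of either list, and they were compared after the data had been seen. Over all 39954 kept sites the strengths of the lists followed each other closely (Spearman's rho 0.910 across sites, which are not independent replicates), and the difference in percentile, mutant minus wild type, had a 5th percentile of −19.4 and a 95th of 19.9. The Evx2 site stood at percentile 53.6 in wild type and 33.4 in the mutant, a difference of −20.2 that is below those of all 30 kept sites within 1 Mb, which ran from −15.4 to 20.8. Of all kept sites 4.43% had a lower difference than Evx2. The other edge sites differed less, by −4.83 and −9.26 between Evx2 and Hoxd13 and by −8.51 at Hoxd4, each within the range of the 30 flanking sites, whose median was −1.36. These are single sites in single libraries, so whether the rank of the edge sites would vary as much between 2 wild-type libraries was not tested.

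**Figure D2:**
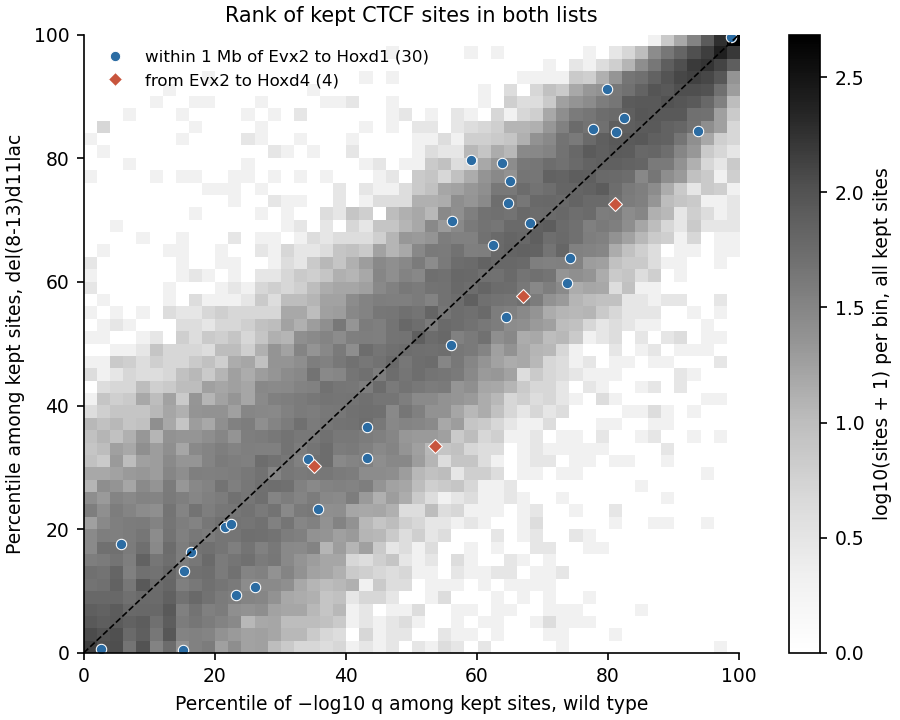
Percentile of each kept CTCF site by −log10 q in wild type (x axis) and in del(8-13)d11lac (y axis), as shading for all 39954 kept sites and as points for those at HoxD. The 4 sites from Evx2 to Hoxd4 (diamonds) lie under the diagonal, with the Evx2 site at 53.6 and 33.4, and the 30 sites within 1 Mb (circles) lie on both sides of it.

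Inside the gap the mutant list had 1 peak that wild type lacked, at 74678720 to 74678965 between Hoxd12 and Hoxd11. Of the 61200 mutant peaks, 21500 (35.1%, 34.8 to 35.5) lacked an overlap with the wild-type whole-limb list, and 4332 (7.08%) lacked one with all 3 wild-type CTCF lists. The Hoxd11 peak belonged to the second kind and had no overlap in any of the other 9 lists, cohesin included. Its −log10 q of 12.4 stood at percentile 29.9 of the mutant list, with a 6.79-fold enrichment. No motif lay at its summit, where the best match scored −6.29 bits and the GC content was 41.6%. It lies 3.48 kb before the first base of the nearest coding Hoxd11 transcript. The peak lies in the stretch that the allele lacks by its name, and which DNA gave it was not tested. It was not compared with the inserted reporter, whose sequence and place are not given in the sources used here.

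The flanks of the cluster had few missing sites, all weak. Within 1 Mb on either side 4 of 34 wild-type peaks had no mutant peak (11.8%, 4.67 to 26.6), an interval that holds the genome share of 8.22%. They were 2 sites in or near Atf2, which encodes a bZIP transcription factor, with −log10 q of 5.36 and 2.07, and promoter sites. The first Atf2 site was intronic and next to a kept peak (73868098 to 73868396, 6.23 in wild type and 21.8 in the mutant). The second lay before the Atf2 start, in an intron of another annotated gene. The promoter sites were those of Lnpk (2.07), a gene for an endoplasmic reticulum protein, and Hnrnpa3 (3.87), a gene for an RNA-binding protein. No other CTCF list had the Lnpk promoter peak, and 1 of the 4 held a motif.

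Extra sites made up 27 of 57 mutant peaks in these flanks (47.4%, 35.0 to 60.1), an interval whose lower end just holds the genome share of 35.1%. Their −log10 q ran from 1.98 to 19.6, and 22 of the 27 were peaks in a wild-type forelimb list, close to the 79.9% of all extra sites. They include the site between Lnpk and Evx2 (74635452 to 74635895, 16.1 in the mutant, 19.8 in distal and 14.5 in proximal forelimb) and the promoter of Nfe2l2 (75704388 to 75704709, 9.18 in the mutant, 6.56 and 7.65 in forelimb), which encodes a regulator of the oxidative stress response. The strongest, at 75530764 to 75531079 between Mtx2 and Hnrnpa3, had 19.6 in the mutant, and 4.95 and 6.67 in forelimb. None of the 27 was a peak in a wild-type cohesin list, against 9.20% of all extra sites, and with so few sites this difference was not tested. The 5 that no other CTCF list held had −log10 q of at most 6.94.

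Some of the flanking extra sites shared 1 sequence, which was frequent in extra sites elsewhere too. Of the 27, 17 held a motif, 10 of these lay in sequence that the mouse reference marks as repeat over more than 50% of the bases within 50 bp of the summit, and 7 held the same 12 bases, CCAGAAGAGGGC. This 12-mer was the most frequent one in the motifs of all extra sites and was looked for after the data had been seen. The 7 were counted in the motif match alone. Of all extra sites 18.1% held the 12-mer anywhere within 50 bp of the summit, a wider search, and the flanks were not tested against that share. Matches from Lnpk, Atp5g3 and Hnrnpa3 are shown to let the copies be compared, and the last is from a wild-type peak at Atf2 without a mutant peak.
Lnpk intron, chr2:74550877-74550895, plus strand: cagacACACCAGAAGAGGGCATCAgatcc
far from Atp5g3, chr2:74239147-74239165, plus strand: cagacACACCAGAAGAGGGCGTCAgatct
near Atp5g3, chr2:73906317-73906335, plus strand: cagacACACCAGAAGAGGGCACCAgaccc
Hnrnpa3 intron, chr2:75664089-75664107, plus strand: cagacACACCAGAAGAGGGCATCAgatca
Atf2, missing in the mutant, chr2:73897250-73897268, minus strand: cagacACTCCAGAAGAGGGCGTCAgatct

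Copies of a rodent short interspersed element, B2, are known to carry CTCF motifs of this kind; the files name no repeat family, so whether these are B2 copies was not tested. Genome-wide the 12-mer, sought on both strands within 50 bp of the summit, was in 3902 of 21500 extra sites (18.1%, 17.6 to 18.7), in 8.81% of kept sites and in 4.22% of missing sites, and in 0.358% of windows of the same length 2 kb from wild-type summits. Of the 7661 mutant peaks with the 12-mer 50.9% were extra, and 85.4% were marked as repeat. Among sites marked as repeat the shares came close to each other, with 43.6% of extra, 45.1% of shared and 41.4% of kept sites, while missing sites had 8.18%. Repeat sequence itself was more frequent in extra sites (37.8%) and in missing sites (49.5%) than in kept sites (16.7%). In other terms, 55.0% of the mutant peaks in repeats were extra, against 28.8% of those outside. Of the wild-type peaks in repeats 21.0% were missing, against 5.15% of those outside. None of these shares is matched for strength, and of the shared peaks in the strongest mutant decile only 1.88% lay in repeats. In the weakest mutant decile 38.4% of extra and 35.5% of shared peaks did, and in decile 5 the shares were 36.8% and 30.3%. In the weakest wild-type decile they were 51.9% of missing and 32.5% of kept peaks.

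Chromosome 2 as a whole did not stand apart from the other autosomes. On it 271 of 3281 wild-type peaks were missing (8.26%), and 1685 of 4677 mutant peaks were extra (36.0%), of which 356 (7.61% of all 4677) were in no wild-type CTCF list. On the other autosomes the shares were 8.01%, 35.0% and 7.01%. Within 5 Mb of the cluster 15 of 204 wild-type peaks were missing (7.35%) and 121 of 310 mutant peaks were extra (39.0%), with 33 in no wild-type list (10.6%, 7.68 to 14.6). Beyond 5 Mb the shares of chromosome 2 were 8.18%, 35.8% and 7.38%. In windows of 10 Mb the missing share ran from 3.85% to 21.2%, and the window with HoxD had 9.80%. The highest window lay 29.7 Mb before Hoxd13 and rested on 11 of 52 peaks.

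**Figure D3:**
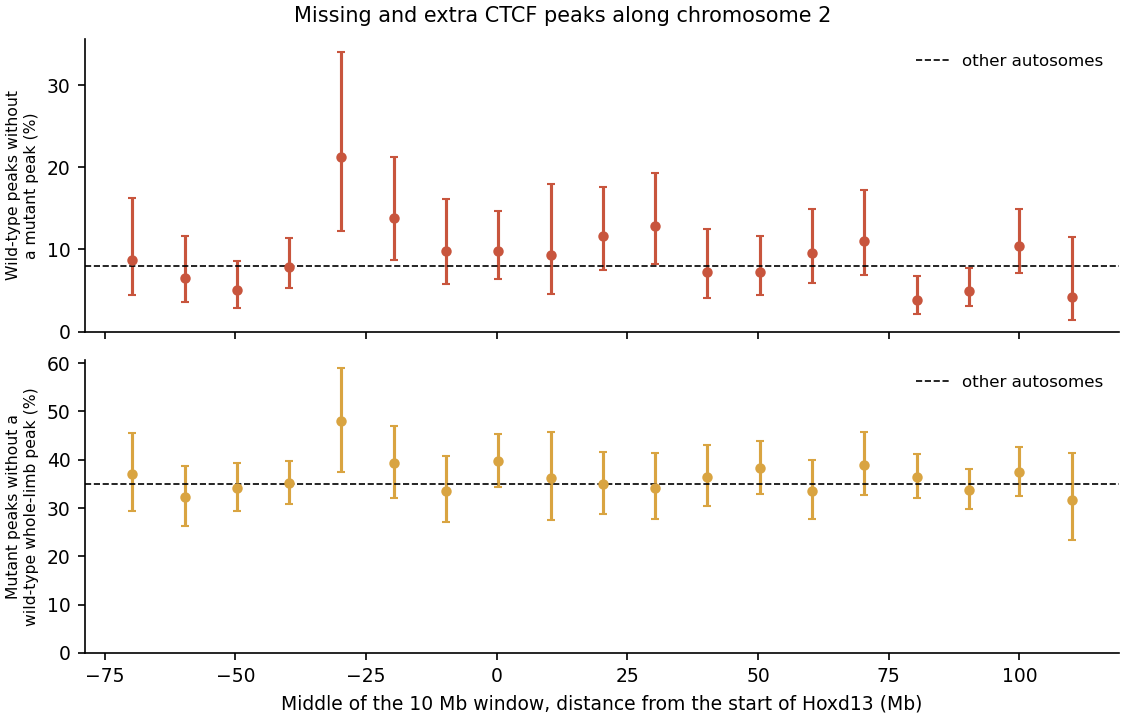
Share of wild-type CTCF peaks without a mutant peak (top, %) and of mutant peaks without a wild-type whole-limb peak (bottom, %) in 10 Mb windows of chromosome 2, by distance of the window's middle from the start of Hoxd13 (Mb). Bars are Wilson 95% intervals and dashed lines the other autosomes (8.01% and 35.0%); the window with HoxD has 9.80% and 39.7%.

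Outside HoxD the strongest missing site of chromosome 2 was 140 kb from Prex1, a gene for a Rac exchange factor (166441750 to 166442090, −log10 q 27.3). It was also a peak in distal forelimb (19.8) and of SMC1 there (20.9), and held no motif. The next was in an intron of Slc1a2, a glutamate transporter gene, with 13.0, and this site had a motif and peaks in distal (53.0) and proximal (43.9) forelimb, in del(1-13)d9lac (10.7) and, more weakly, del(attP-Rel5)d9lac (5.64). An intronic site nearest to Naa20 had 10.3, a site in an intron of the Notch ligand gene Jag1 had 8.70, and one in Cse1l, a nuclear export factor gene, had 8.29. The strongest extra sites of the chromosome, by the scale of the mutant list, lay nearest to Ankrd60 (76.7), Otud1 (55.6), Sox12 (55.4), Nup35 (54.9) and Top1 (54.5). All 5 had a motif and were peaks in both forelimb lists and in del(attP-Rel5)d9lac. Most of the 644 extra peaks in deciles 6 to 10 of the mutant −log10 q did likewise (89.4%, 97.8% and 84.2%).

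Whether a site was in both lists followed its strength. Of the wild-type peaks in the weakest 10% by −log10 q (up to 3.75), 47.6% overlapped a mutant peak, and the share was 78.2% in the next decile, 94.1% in the third and at least 98.7% in each decile from 4 to 10. The mutant peaks showed the same order over a wider range, with 8.66% shared in the weakest decile, 67.9% in decile 5, 90.5% in decile 6 and 99.0% or more from decile 7. The median −log10 q was 2.88 for missing and 19.7 for kept wild-type peaks, and 8.13 for extra and 69.6 for shared mutant peaks. Of the missing peaks 12 reached 20. With a −log10 q of at least 10 asked in both lists the missing share was 0.603%, and with both lists at 43533 peaks the missing share was 14.5% and the extra share 15.1%.

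**Figure D4:**
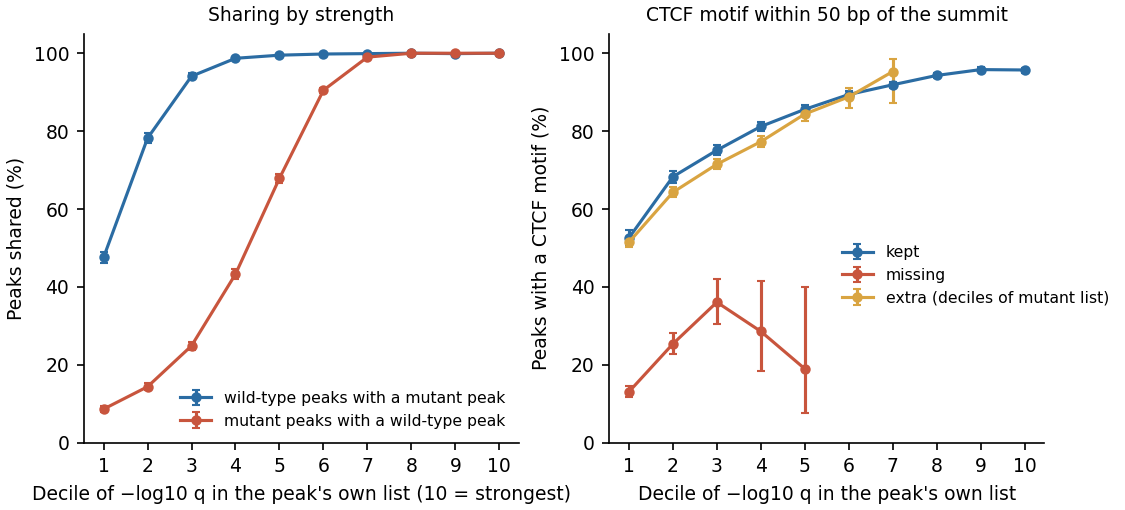
Left, share of peaks (%) that overlap a peak of the other list, by decile of −log10 q in the peak's own list, with Wilson 95% intervals. Right, share of kept, missing and extra peaks (%) with a CTCF motif within 50 bp of the summit, for deciles with at least 20 such peaks; in the weakest decile of their own list kept peaks have 52.6% and extra peaks 51.5%, both are higher in stronger deciles, and missing peaks have at most 36.1%.

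Missing sites held a CTCF motif less often than kept sites of like strength. A motif was present in 85.1% of kept, 67.2% of extra and 18.3% of missing sites. In decile 2 of the wild-type list 68.3% of kept sites (66.7 to 69.8) and 25.4% of missing sites (22.7 to 28.3) had one. In decile 2 of the mutant list the shares were 60.2% of shared (56.9 to 63.4) and 64.3% of extra sites (63.0 to 65.6), and in decile 5 they were 81.7% and 84.4%. Extra sites thus had motifs about as often as shared sites of their decile, and missing sites had them less often than kept sites of theirs. Of 51 missing sites whose −log10 q was 10 or more, 12 had a motif (23.5%, 14.0 to 36.8), 4 of them at HoxD, against 91.4% of the 27967 kept sites above that value. Extra sites that no other CTCF list held still had a motif in 53.1%.

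The other CTCF lists held kept sites most often and missing sites least often, and the cohesin lists did not share that order. At least 1 wild-type forelimb list had a peak at 99.1% of kept, 79.9% of extra (79.3 to 80.4) and 28.3% of missing sites (26.8 to 29.8). In the weakest wild-type decile, where strengths are most alike, the forelimb lists held 94.9% of kept and 21.5% of missing sites, and at least 1 of the 3 other mutant lists held 68.0% and 5.87%. Of the 39477 wild-type peaks that both forelimb lists held, 517 (1.31%) were missing in the mutant. Cohesin lists of wild-type tissue overlapped 62.5% of kept, 11.4% of missing and 9.20% of extra sites. Among mutant peaks of deciles 6 to 10 cohesin was at 75.5% of shared and 27.3% of the 644 extra sites, whose median strengths also differed, at 97.1 and 37.0. The forelimb embryos were CD1 and the compared ones B6CBAF1, so tissue and strain both vary in these overlaps.

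**Figure D5:**
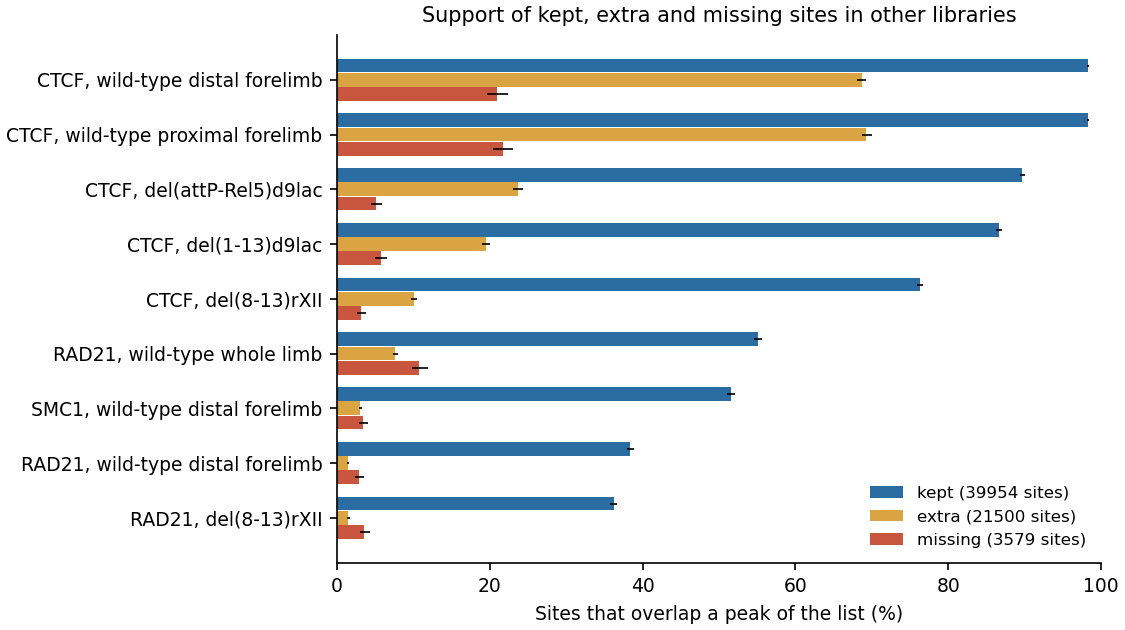
Share (%) of the 39954 kept, 21500 extra and 3579 missing CTCF sites that overlap a peak of each other list, with Wilson 95% intervals. Kept sites lead in every list, extra sites follow in the 5 CTCF lists, and missing sites exceed extra sites in the 4 cohesin lists.

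Of the 10 strongest missing peaks 4 were those at HoxD, and the other 6 had a −log10 q of at most 30.9. The strongest of these lay 22.7 kb from Batf3, a transcription factor gene of dendritic cells (chromosome 1, 191120806 to 191121166). It was a peak in distal (15.4) and proximal (10.3) forelimb, del(8-13)rXII (7.43) and del(attP-Rel5)d9lac (10.2), and RAD21 of whole limb was called there (20.3). Next came the Prex1 site and a site 10.5 kb from Tbc1d23, a Golgi trafficking gene (chromosome 16, 57241806 to 57242136), with 26.1 in wild type, 25.5 in distal and 9.90 in proximal forelimb, 31.3 in del(attP-Rel5)d9lac and 19.8 in del(1-13)d9lac. A site 433 kb from Ythdf3, whose product reads methylated RNA (chromosome 3, 16615919 to 16616255), had 25.6 and was in no other list of any kind. The site 17.3 kb from the ribosome biogenesis gene Noc4l had 24.6, and 32.5 in del(1-13)d9lac, and it alone had a motif, of 16.4 bits. The intronic site in Kcnip1, a potassium channel partner gene, had 23.9, and 16.5 and 15.1 in forelimb.
Noc4l, chr5:110636099-110636117, minus strand: ctttaTGAACACTAGGTGGAGCCCtaaaa

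A motif was thus present at 1 of the 10 strongest missing sites outside HoxD, a set taken after the values were seen, and at 4 of the 5 missing sites at HoxD. The HoxD sites lie in the stretch that the allele lacks by its name, so these sets are unlike in kind. Of the same 10, 8 were peaks in a forelimb list, 8 in another mutant list and 8 in a wild-type cohesin list. Their −log10 q ran from 18.1 to 30.9, and 4 lay in repeats.

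The strongest extra sites were well supported elsewhere. All 10 were peaks in both forelimb lists and in del(attP-Rel5)d9lac, 7 each were peaks in del(8-13)rXII and del(1-13)d9lac, and 9 had a motif. The first was in an exon 17.3 kb from Ankrd60 (chromosome 2, 173595481 to 173596018), with 76.7 in the mutant, 56.2 in distal and 55.4 in proximal forelimb. The second was in an intron of Sgcz, a sarcoglycan gene, with 74.9 in the mutant, and 42.2 and 41.8 in forelimb. The third lay 4.03 kb from Wdr61, a gene for a subunit of complexes that act on RNA, with 73.9, and with 86.1 and 103 in forelimb, and was a RAD21 peak in whole limb (50.9). Usp30 (72.4), Ttc29 (69.9), Arid5b (67.2), Cast (66.0), Arpc1a (63.5) and Samt3 (63.2) were nearest to others, of which the Arid5b site lacked a motif. The only promoter among the 10 was that of the glycosyltransferase gene B3gnt8, with 66.7 in the mutant, and 64.9 and 69.6 in forelimb. The motifs of 3 of them are printed since they are full CTCF matches at sites that the wild-type whole-limb list lacks.
Ankrd60, chr2:173595665-173595683, plus strand: tgagtGTTCCAGCAGGGGGCAGACtttgg
B3gnt8, chr7:25626047-25626065, plus strand: cagagTGGCCAGAAGGTGGCGTTGgattc
Samt3, chrX:85972169-85972187, plus strand: catggTGGCCAGAAGAGGGCGAAAgataa

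Sites of the mutant alone were weaker. The 3844 extra sites in no other CTCF list (6.28% of the mutant peaks) had a median −log10 q of 5.26, and none reached 50. The strongest lay 38.6 kb from Tmem106b (38.1), 396 kb from Pappa (38.0) and in the coding exon of the olfactory receptor gene Olfr613 (33.5), and these 3 had no motif. Those nearest to Rlf (27.8), Nfil3 (27.8), Tmem222 (27.2) and the taste receptor gene Tas2r134 (25.2) had one, of 14.0 to 17.7 bits, and those nearest to Ceacam15 (25.4), Tram1l1 (23.0) and Csmd3 (22.7) had none. None of the 10 was a cohesin peak in wild-type tissue, which was rare in all 3844 too (3.28%). None lay in a repeat, against 35.0% of the 3844, and with so few sites this difference was not tested. The motif at Rlf is printed as the best match of the 10.
Rlf, chr4:121855417-121855435, plus strand: cgtgtTGGACAGCAGATGGCGCGCccgcc

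The classes lay in somewhat different places relative to genes. Summits within 1 kb of a protein-coding start made up 10.6% of kept, 6.20% of missing and 9.36% of extra sites. Intergenic summits made up 40.0%, 49.0% and 38.6%, and introns 42.5%, 40.8% and 46.7%. The median distance to a coding start was 19.2 kb for kept, 45.4 kb for missing and 23.7 kb for extra sites. In the weakest wild-type decile it was 21.3 kb for kept and 50.4 kb for missing sites. The mutant list had a promoter peak at 5557 genes and the wild-type list at 4095, with 3902 in both. In the mutant list alone there were 1655 genes, and in the wild-type list alone 193. The lists differ in length, so these counts are not read as a change at promoters. Of the mutant peaks within 1 kb of a coding start 32.6% were extra, against 35.1% of all mutant peaks. Of the wild-type peaks there 4.99% were missing, against 8.22% of all.

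Missing shares differed between chromosomes by more than counting error. Apart from chromosome Y they ran from 6.18% on chromosome 19 (4.96 to 7.67) to 11.5% on chromosome X (9.87 to 13.4). The highest autosomal share was 10.2% on chromosome 16 (8.76 to 11.9). On chromosome Y 46 of 82 wild-type peaks had no mutant peak (56.1%). The longest rows of neighbouring missing sites were 26 and 16 peaks on chromosome Y and 8 peaks on chromosome 11, with a median −log10 q of 3.11, 2.88 and 2.92, and the longest row of extra sites was 12 peaks on chromosome 1 (median 8.70). Without X and Y the missing share was 8.03% and the extra share 35.0%.

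The paralogous Hox clusters, which share ancestry and limb functions with HoxD, had no missing site within 10 kb of a gene. A kept site lay there for 10 of 12 genes of HoxA with Evx1, 9 of 10 of HoxB and 7 of 9 of HoxC, and a missing one for 0 in each, against 68.7% and 9.16% of all 21911 coding genes. The intervals of the missing shares reach up to 24.2%, 27.8% and 29.9%, so each holds the share of all genes. Among 20 genes of the HoxD locus 12 had a missing site, and 9 had one that both forelimb lists held, against 1.74% of all genes. Neighbours there share the same few sites, and those from Hoxd13 to Hoxd8 lie in the stretch that the allele lacks by its name. An extra site lay near 6 genes of HoxA, 1 of HoxB and 5 of HoxC, against 46.4% of all genes. Extra sites in no wild-type list were near 1 gene of HoxA, 0 of HoxB and 3 of HoxC, against 13.0% of all genes. Their intervals (1.49 to 35.4%, 0 to 27.8% and 12.1 to 64.6%) hold that share. The genes were Evx1 (−log10 q 5.26), Hoxc4 (3.74), and Hoxc12 and Hoxc13, which share one (7.08). Hoxc12 had another (10.4) that 1 other mutant list held.

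Genes of limb patterning mostly had kept sites. Of 35 such genes 31 had a kept site within 10 kb, 22 had an extra site and 1 had a missing site, which was an intronic site in the Hedgehog receptor gene Ptch1 (5.64) that no other CTCF list held. These are 88.6% (74.0 to 95.5), 62.9% (46.3 to 76.8) and 2.86% (0.506 to 14.5), against 68.7%, 46.4% and 9.16% of all genes, so the extra and missing shares lie within counting error of those of all genes and the kept share lies above. Extra sites in no wild-type list were near 7 of the 35 (20.0%, 10.0 to 35.9), against 13.0% of all genes. They include a site 9.60 kb inside Ptch1 and within 1 kb of a coding transcript's start (5.45) and Grem1, a BMP antagonist gene (7.14). The extra sites that the forelimb lists supported included one in Lmx1b, a gene of dorsal limb identity, with 54.0. Another, with 36.7, lay within 10 kb of both Dlx5 and Dlx6, homeobox genes of the limb and its skeleton.

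Of 16 cartilage and skeletal genes all had a kept site (100%, 80.6 to 100), above the 68.7% of all genes. An extra site lay near 9 (56.2%, 33.2 to 76.9) and a missing one near 2. The last 2 counts are near the 46.4% and 9.16% of all genes. The missing sites were intronic, in Sox5 and Sox6, which encode partners of Sox9 in cartilage, with a −log10 q of 4.67 each, and no other CTCF list held them. Extra sites in no wild-type list were near 5 of the 16 cartilage and skeletal genes. That is 31.2% (14.2 to 55.6), an interval just above the 13.0% of all genes, and the difference was not tested. They include a site of 7.32 at Col2a1, the gene of the main cartilage collagen, and one of 7.29 at Nog, a BMP antagonist gene. Of 16 genes for CTCF, cohesin and their regulators 10 had a kept and 11 an extra site, and the 1 missing site lay within 10 kb before the start of the CTCF paralog gene Ctcfl (2.55). Their kept share was 62.5%, their extra share 68.8% (44.4 to 85.8) and their missing share 6.25%, against 68.7%, 46.4% and 9.16% of all genes, so each is within counting error of the background. Extra sites in no wild-type list were near 5 of these 16 genes (31.2%, 14.2 to 55.6), against 13.0% of all genes, a difference not tested. They included the promoter of Rad21 (6.07) and an intron of Stag1 (29.1), both genes of cohesin subunits. The Stag1 site was also in the del(8-13)rXII list. All these missing sites were in the weakest 3 deciles of the wild-type list.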

How the data were processed

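CTCF, RAD21 and SMC1 were profiled by ChIP-seq, and 11 peak lists were used, 1 per sample; 2 H3K27ac samples were not analysed here. Per the submitters' processing notes cutadapt, Bowtie2, MACS2 and build mm10 were used, with versions and settings not given in the sources used here. In each deposited list the score is the −log10 q times 10, rounded by the authors, and the fold enrichment is a ratio over local background computed by the authors. Each summit's p-value and q-value are deposited as −log10 values, and each list stops near a q of 0.05. Read depth is unknown, so no floor or depth correction could be given.

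Overlapping rows of a list were merged, with the strongest summit kept, on the 19 autosomes, X and Y. A wild-type peak is kept when a mutant peak overlaps it by at least 1 bp and missing otherwise; a mutant peak is shared or extra in the same way. Genes are from GENCODE M21 on GRCm38 patch 6, the same assembly as mm10, and sequences from its FASTA. The motif matrix was seeded with the 8-mer most over-represented at the 2000 strongest wild-type summits and refined on 1858 windows. The overlap and motif code was tested on simulated data. Versions were Python 3.11.15, NumPy 2.4.6, pandas 2.3.3, SciPy 1.17.1 and pysam 0.24.0.

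The members and gene lists were chosen with earlier results of these data known. Named sites are all peaks from Evx2 to Hoxd1, the 10 strongest missing, extra, and extra peaks in no other CTCF list, the 5 strongest missing and extra of chromosome 2, each with the nearest coding gene (predicted genes passed over), and up to 4 members of each of 7 gene lists with a missing or unsupported extra site. The ranks, the 12-mer, the flanking sites and the supported extra sites at Lmx1b and at Dlx5 and Dlx6 were chosen after values were seen. Alternatives were a stricter −log10 q, other overlap rules, equal list lengths, a wider motif window and, added later, autosomes alone.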

Additional observations from a re-analysis of the deposited data

How the results depend on the processing

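With 1 library a side no replicate could be left out, and nothing here measures how 2 wild-type libraries would differ. No paired analysis was possible because the groups hold 1 sample each. The 5 missing sites at HoxD were missing under each of the 4 alternatives run for them. They lie in the stretch that the allele lacks by its name, so this outcome was fixed in advance and shows no robustness. When both lists were held to a −log10 q of 10 or more, the missing share was 0.603% over the genome and 0.610% on chromosome 2, and the extra share 39.8% and 39.3%. With 50% of a peak covered the extra share was 40.8% and 41.9%. With summits within 200 bp the missing share of the genome was 9.08%. With lists of equal length the missing share was 14.5% and 14.2%, and the extra share 15.1% and 14.4%. With 100 bp around the summit a motif was in 87.4% of kept, 20.2% of missing and 72.0% of extra sites. Autosomes alone, an alternative chosen after seeing the data, gave 8.03% and 35.0%. For each of these shifts the cause was not tested. Read depth, which limits weak peaks most, is unknown.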

Other observations

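A small group of 488 extra sites was in no wild-type CTCF list but in at least 1 of the 3 other mutant lists. Their median −log10 q in the del(8-13)d11lac list was 6.65, and 57.4% had a motif. The 10 strongest, taken after the values were seen, ran from 27.4 to 52.9, and 8 of them had a motif. The first was in an intron of Vwc2, a gene for a secreted BMP-binding protein (chromosome 11, 11223170 to 11223576), with 52.9 here, 5.14 in del(8-13)rXII and 8.96 in del(attP-Rel5)d9lac, and RAD21 of wild-type whole limb was called there (11.4). The second was in an intron of Magi1, a scaffold protein gene of cell junctions (chromosome 6, 93729682 to 93730115), with 50.3, 6.10 and 18.7 in the same lists. A site 16.4 kb from the heat shock gene Dnajb1 had 45.8 here, 13.6 in del(attP-Rel5)d9lac and 12.9 in del(1-13)d9lac. All mutants were on B6CBAF1 and the forelimb embryos on CD1, and the wild-type whole-limb library was on B6CBAF1 too. The motifs of the first 2 are printed because they stand at sites that the 3 wild-type CTCF lists lack.
Vwc2, chr11:11223355-11223373, minus strand: ggattCAGGCACTAGATGGCACTAgatgg
Magi1, chr6:93729901-93729919, minus strand: actagAGCCCAGTAGAAGGCGCTGcagtg

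A few wild-type peaks were lacking in this mutant list alone among the mutant lists. Of the 3579 wild-type peaks without a peak in it, 28 (0.782%) were peaks in all 3 other mutant lists, against 71.9% of kept sites.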
